A study of Mus musculus with 87 samples.

Results

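The second generation of Chr4-cl KO mice on the mixed B6/129 background was compared with the first. The members were chosen by the labels: Chr4-cl KO/KO animals of the strain B6x129X1/SvJ (F1), with 4 libraries that carry the note F2 and 4 that do not, together 8 of the 87 libraries of the series. Each library is genomic DNA of 1 mouse, enriched with RNA baits against both ends of ETn long terminal repeats (LTRs) and sequenced in read pairs, so that reads in the DNA next to an element report its position. The question is whether the insertions found in a single first-generation animal pass to its offspring, or whether further insertions build up.

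All 8 mice lack both copies of the Chr4-cl, a cluster of KRAB zinc finger protein (KRAB-ZFP) genes on chromosome 4 that was deleted in B6 embryonic stem (ES) cells. The 4 first-generation animals descend from 2 sequenced KO/WT mice of the same strain label, T3913 (female, ear) and T3921 (male, tail). They are T09673 and T09674 (females, blood), T00436 (female, tail) and T00869 (male, ear). The 4 second-generation animals are siblings from 1 mating of 2 of these, T09673 as mother and T00869 as father, and all were sampled from the ear: C6427 and C6428 (females) and C6429 and C6430 (males). T3913 and T3921 are therefore their grandparents. The 3 tail libraries of the first mating, T00434, T00435 (females) and T00464 (male), carry the label WT and served as reference, although the study's text calls them heterozygous. No ages are used here, and each generation is 1 family, so a p-value over animals measures the spread between siblings. The tissue goes with the generation: the only first-generation ear library is T00869.

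KRAB-ZFPs bind transposable elements in a sequence-specific manner and recruit KAP1 and SETDB1, which place the silencing mark H3K9me3. ETn elements are mouse endogenous retroviruses that encode no proteins of their own and move with those supplied by the related ETnERV (MusD) elements. They remain active in present-day mice, and zinc finger proteins of the Chr4-cl bind them.

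The probes show what was captured. The most frequent probe for an LTR start and the most frequent for an LTR end were present in 52 and 50 of the 1274 probes, and the capitals mark the terminal TG and CA of the LTR. An LTR looks alike in every copy of a family, so it is the mate read in the flanking DNA that tells one insertion from another.
LTR start probe: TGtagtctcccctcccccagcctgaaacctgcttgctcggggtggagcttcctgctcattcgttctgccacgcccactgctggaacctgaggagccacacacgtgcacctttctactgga
LTR end probe: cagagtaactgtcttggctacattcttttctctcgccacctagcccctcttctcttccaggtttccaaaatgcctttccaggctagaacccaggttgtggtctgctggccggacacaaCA

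The flanking DNA of 3 new loci on which the comparison turns is shown as reference sequence of build NCBIM37 (the same assembly as mm9), plus strand, since the files give the region of the flanking reads but no exact insertion point. The first is an insertion of the mother T09673 for which the study designed primers, and the capitals mark where the primers match. The next is the father's single insertion, and the last is the single insertion of the second generation, both without capitals because no primer was given.
T09673 chr4:55270577-55270858: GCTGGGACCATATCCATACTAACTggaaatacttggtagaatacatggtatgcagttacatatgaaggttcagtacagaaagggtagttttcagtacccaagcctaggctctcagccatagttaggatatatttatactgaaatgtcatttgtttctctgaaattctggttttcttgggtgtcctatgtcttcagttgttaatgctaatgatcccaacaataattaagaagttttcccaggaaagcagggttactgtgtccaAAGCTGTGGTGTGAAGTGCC
T00869 chr9:73951528-73951727: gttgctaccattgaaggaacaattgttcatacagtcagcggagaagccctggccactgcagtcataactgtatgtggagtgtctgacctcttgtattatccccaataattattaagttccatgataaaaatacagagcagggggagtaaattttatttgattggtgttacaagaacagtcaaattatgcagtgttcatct
C6428 chr13:33733518-33733717: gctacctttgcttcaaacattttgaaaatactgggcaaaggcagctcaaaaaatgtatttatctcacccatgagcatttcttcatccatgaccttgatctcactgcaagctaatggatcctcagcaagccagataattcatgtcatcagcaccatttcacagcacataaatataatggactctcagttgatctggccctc

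The libraries held 707121 to 902477 ETn-paired reads, and reads per 1e6 of these (RPM) are the unit throughout. A locus was called at 10 RPM or more, which took 7.07 to 9.02 reads. Of the 2347 loci called in all 16 B6 libraries, the 8 members called 98.5% to 99.8%. The chromosome Y share was 0.144% to 0.154% of reads in the male libraries and 0.0058% to 0.00853% in the female ones, as the sex labels state. The genotype labels were checked at 3 ETn loci in the region of the cluster. On the B6 background, chr4:145019453-145021647 held 358 to 359 RPM in WT mice and 3.75 to 19.0 RPM in KO founders. There, chr4:147667616-147670848 held 492 to 512 RPM in WT mice and 354 to 515 RPM in KO founders. At chr4:145019453-145021647 the 4 second-generation animals held 2.41 to 9.64 RPM, the grandparents 288 and 329 RPM, and the 3 WT-labelled mice 395 to 434 RPM. At chr4:147667616-147670848 the order was turned, with 474 to 522 RPM in the second generation, 326 and 381 RPM in the grandparents and 0 to 4.33 RPM in the WT-labelled mice. The WT-labelled mice thus stood apart from the KO/WT grandparents at both loci, on the side opposite to the KO animals. At the first locus this is also the side of the B6 WT mice. At the second locus it is not, since both WT mice and KO founders of the B6 line held it. The second locus therefore does not report the deletion itself.

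One member stood apart before any comparison. At the 228 loci that are polymorphic in the family, chromosome Y left out, the library of T00869 held 26 loci at 10 to 60 RPM, against 11 in T09673, 4 in T09674, 3 in T00436, and 2 to 5 in the second generation. Most loci in the other libraries were clearly above or clearly below this range. Where T00869 was under 60 RPM its median was 12.2 RPM, while the medians of the other 7 members were 0 to 4.43 RPM. It was 23.1 RPM at the 20 loci that both B6 ES cell lines hold and 5.43 RPM at the 27 others. The direction was the same in the other 7 members, with medians of 1.33 to 6.65 RPM against 0 to 1.20 RPM. The library of T00869 showed 20.4 RPM at chr4:145019453-145021647 and 38.0 RPM at chr4:145080501-145083011, where the other first-generation KO animals had at most 8.86 and 5.54 RPM. Such levels were not limited to this library: KO founders of the B6 line ranged from 3.75 to 19.0 and from 2.45 to 36.2 RPM there. The part of the low reads of T00869 in the results was not tested, and the comparisons of counts per animal are given without this library as well. The split of grandparental loci by the number of parents that held them needs the father and has no such value.

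**Figure D1:**
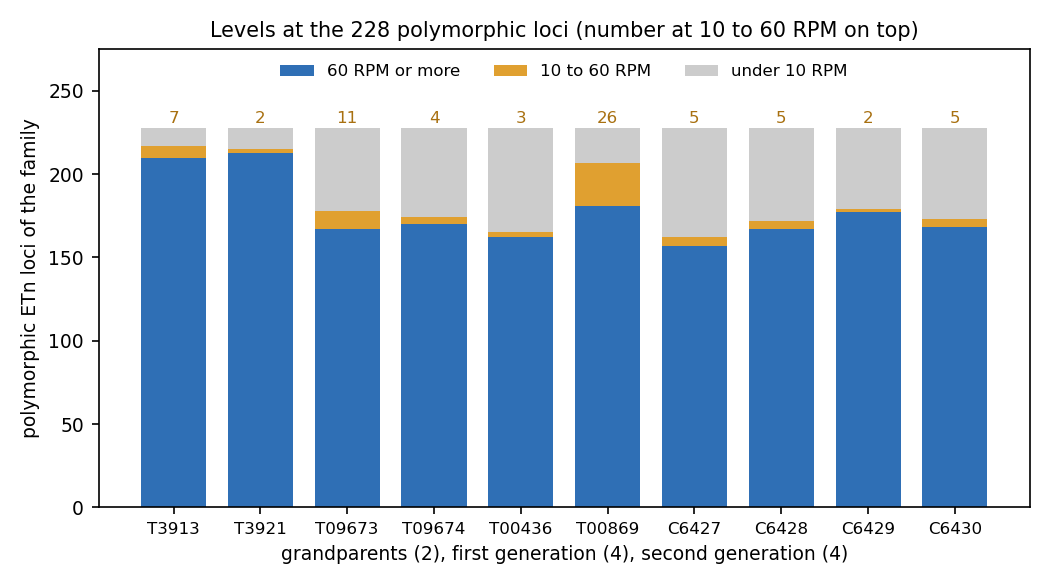
Number of the 228 polymorphic loci of the family (y axis) in each level class for the 2 grandparents and the 8 KO animals (x axis). The class of 10 to 60 RPM, whose size is printed on top, holds 26 loci in T00869 and 2 to 11 in the other 9 libraries.

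Private insertions were frequent in the first generation and nearly absent in the second. A private insertion is a locus called in 1 animal and in no other of the 76 main libraries (1 per animal or cell line), with no read in a sequenced ancestor. T00436 had 18, T09673 had 8, T09674 had 2 and T00869 had 1, a mean of 7.25 ± 7.80 (SD, n = 4). C6428 had 1 and its 3 siblings had 0, a mean of 0.25 ± 0.5 (SD, n = 4). The WT-labelled mice had 0 each. In 15 of the 16 pairs of a first- and a second-generation animal the second-generation animal had fewer, and the remaining pair, T00869 and C6428, tied at 1. The exact permutation test of the rank sum did not pass 0.05 (two-sided, p = 0.0571), and with these tied counts it could not go lower. Without T00869 the 3 other first-generation animals all lay above the second generation, again with p = 0.0571, the smallest that an exact test of 3 against 4 animals allows. The ear libraries alone held 1 in T00869 and 0, 1, 0 and 0 in the second generation, so tissue and generation cannot be told apart. No second-generation animal had more private insertions than any first-generation animal.

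**Figure D2:**
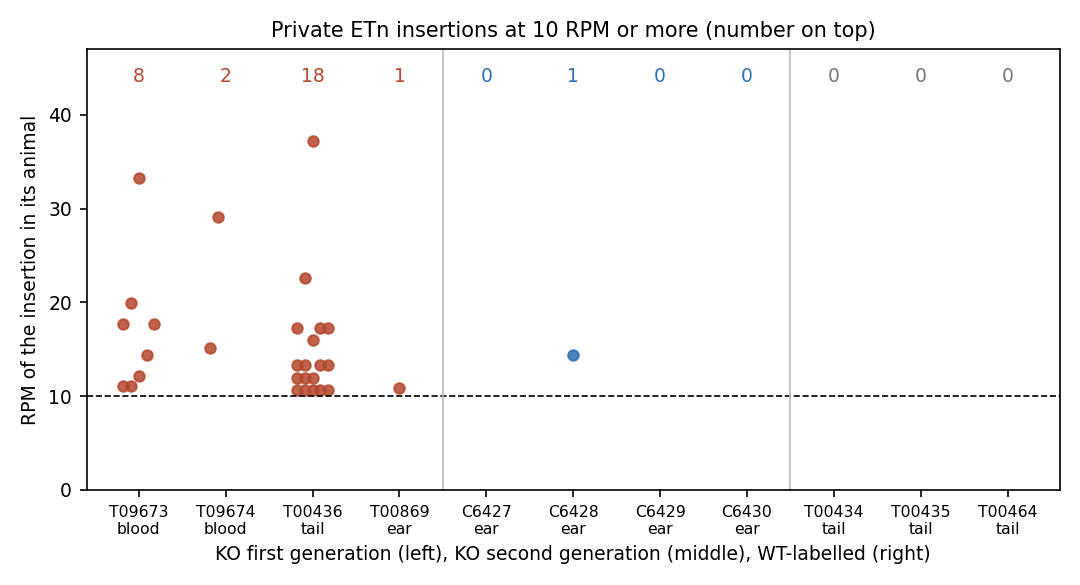
Level in RPM (y axis) of every private insertion in the 4 first-generation KO, 4 second-generation KO and 3 WT-labelled animals, with the tissue under each name. Points are insertions and the dashed line is the 10 RPM threshold. The 29 insertions of the first generation range from 10.6 to 37.2 RPM, and the second generation has 1, at 14.4 RPM.

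The 8 insertions of the mother T09673 were spread over 6 chromosomes, and 6 lay in genes. The strongest, chrX:54767330-54768003, had 33.2 RPM from 30 reads and lay between genes, 10396 bp from Gpr101, which encodes an orphan G protein-coupled receptor. At 17.7 RPM each were chr4:55270435-55270875, in an intron of the noncoding transcript Gm12514, and chr6:99079098-99079569, in an intron of the transcription factor gene Foxp1. The region at chr3:126382433-126383060 (14.4 RPM) lay in an intron of Camk2d, a calcium/calmodulin-dependent kinase gene. At chr2:17299814-17300298 (12.2 RPM) the region overlapped a coding exon of Nebl, which encodes the actin-binding protein nebulette. The weakest, both at 11.1 RPM, were chr2:127207972-127208331, which lay 15015 bp from the adrenergic receptor gene Adra2b, and chr2:153216044-153216490 in an intron of the chromatin regulator gene Asxl1. All 8 had no read in any other animal.

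The father T00869 contributed 1 insertion, chr9:73951354-73951900, at 10.9 RPM from 8 reads, just above the threshold and 6238 bp from Wdr72. The 2 insertions of T09674, which is no parent, were at chr5:115051090-115051470 (29.1 RPM, in an intron of BC057022) and chr15:8726004-8726407 (15.1 RPM, 65240 bp from the glutamate transporter gene Slc1a3). Each also had a read in 1 other animal, so T09674 had 0 private insertions where no read elsewhere was allowed.

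T00436, a tail library and no parent either, held 62.1% of the first-generation insertions, on 10 chromosomes. Its strongest was chr8:10770421-10771111 at 37.2 RPM, the highest of all 30, in a stretch 135680 bp from the nearest protein-coding gene, Myo16. On chromosome X the regions chrX:45557103-45557650 (22.6 RPM) and chrX:6456480-6456987 (17.3 RPM) lay in introns of the palmitoyltransferase gene Zdhhc9 and the diacylglycerol kinase gene Dgkk. At the same 17.3 RPM, chr11:36517607-36517915 and chr2:44649929-44650776 lay in introns of Odz2, a teneurin gene, and of Gtdc1. The region chr6:51554571-51555080 (15.9 RPM) lay 13893 bp from the sorting nexin gene Snx10, and 8 other libraries had reads within 5000 bp of it, at up to 289 RPM and no nearer than 3587 bp. Its 12 further insertions had 10.6 to 13.3 RPM, and 7 of them lay in genes. T00436 also held 55 private loci at 5 to 10 RPM, where the other 3 first-generation animals held 6, 3 and 1, the second generation 1, 0, 0 and 1, and the WT-labelled mice 0, 1 and 2.

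The definition of a private insertion used no gene annotation. Of the 29 in the first generation, 18 lay in a gene (17 protein-coding) and 11 between genes, with 15 in introns, 2 in untranslated exons and 1 over a coding exon. Of 57 older loci that only 1 of the parents of the second generation carried, 15 lay in a gene and 42 between genes, and the difference was not tested. The 2 sides of 1 element can count as 2 of these older loci. The share of the genome that lies in genes is not given here, so no preference for genes can be read from these counts. None of the 29 lay within 1000 bp of a match to a capture probe in the reference genome, and a reference copy that other animals carry cannot be private by definition. The regions were 227 to 848 bp wide (median 485 bp). Their median level, which the threshold of 10 RPM bounds from below, was 13.3 RPM (quartiles 11.1 and 17.3), and the common B6 loci had a median of 429 RPM in the same 4 animals, 32.3 times higher. In bulk DNA, few cells with an insertion and few reads captured per copy cannot be told apart.

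The one insertion of the second generation was found in the daughter C6428 at chr13:33733367-33733868, at 14.4 RPM from 12 reads, over an exon of the pseudogene Gm11388. No other animal had a read in the region itself. Within 5000 bp of it, however, 27 of the 75 other main libraries had reads, at up to 3.01 RPM and no nearer than 1815 bp. This was more than at any of the 29 first-generation insertions, where the median was 0 other libraries and the highest 16. When regions within 5000 bp were joined, this locus was no longer private, the second generation had 0 insertions, and the exact test gave p = 0.0286. The same joining also removed the Snx10 insertion of T00436 from the private ones, and the first-generation mean was 6.75 in place of 7.25.

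The private rule alone cannot show transmission, because a locus found again in an offspring is no longer private. New loci were therefore taken as those called in a first-generation animal with no read in T3913 or T3921, whether or not another animal had them. The 2 parents had 9 such loci, the same number as their private insertions. In none of the 36 pairs of locus and offspring was there a single read, neither in the regions nor within 5000 bp of them. The share passed on was thus 0 of 9 (exact 95% interval 0% to 33.6%), or 0 of 8 for the mother alone (0% to 36.9%). The value depends on the rule: at 5 RPM 10 of 27 new loci of the parents had an offspring read (37.0%), against 12 of 89 (13.5%) of the animals that are not parents. Where reads without a call were allowed in the grandparents it was 44 of 54 (81.5%), against 45 of 64 (70.3%). At 5 RPM with no read in any animal outside the family it was 0 of 12, and 0 of 65 for the animals that are not parents. With 0 reads seen, by counting error an expected count of up to 3 reads remains possible. That is 3.61 to 4.24 RPM in the single offspring libraries. The Gm12514 locus printed above, at 17.7 RPM in the mother, and the strongest at 33.2 RPM near Gpr101, were both without reads in the 4 offspring. The 20 new loci of T09674 and T00436, which are not parents, serve as background: 1 had a single offspring read (5%, 0.127% to 24.9%). That was the insertion of T00436 in an intron of Dennd1a (chr2:37813418-37813748, 10.6 RPM), named here after its values were seen, where 10 other animals had a read. No new locus was called in 2 or more siblings of either generation.

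What a transmitted locus of high read support looks like in these libraries was read from older ETn loci that only 1 of the 2 parents carried. There were 57 loci with at least 100 RPM in one parent and under 10 RPM in the other, on 16 chromosomes, 15 from the mother and 42 from the father, and every one was also at 60 RPM or more in a grandparent. Loci are regions of flanking reads, so the 2 sides of 1 element can count as 2 of the 57. Of the 228 pairs of locus and offspring, 158 were called, which is 69.3%. The interval of 62.9% to 75.2% covers counting only, since linked loci and 2 sides of 1 element are not independent. For the mother's loci the share was 61.7% and for the father's 72.0%. C6427 called 35, C6428 40, C6429 47 and C6430 36 of the 57. Every locus reached at least 1 offspring: 19 were called in all 4 and 38 in 1 to 3.

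Carriers and non-carriers were far apart at these loci. Called offspring had a median of 190 RPM, 13.2 times the median of the parents' new loci in the parents themselves (14.4 RPM), and apart from one value of 11.3 RPM the lowest was 92.2 RPM. Offspring without a call had a median of 1.29 RPM and at most 9.62 RPM, where the call at 10 RPM sets the upper bound. The rule took only loci at 100 RPM or more in the carrying parent. A transmitted locus as weak as the new loci could therefore not enter, and the ratio of 13.2 follows in part from the rule. The locus chr2:151879966-151881807, 25458 bp from the zinc finger gene Scrt2, illustrates this with 306 RPM in the mother, 1.36 RPM in the father, 269 RPM in C6428 and 0 RPM in each of its 3 siblings. A locus in an intron of the tumor suppressor gene Fhit, chr14:11609249-11610688, was at 247 RPM in the mother, 241 RPM in C6428, 257 RPM in C6430 and 0 RPM in C6427 and C6429. It was at 270 RPM in the grandfather T3921 and 1.26 RPM in the grandmother, and so can be followed over 3 generations.

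**Figure D3:**
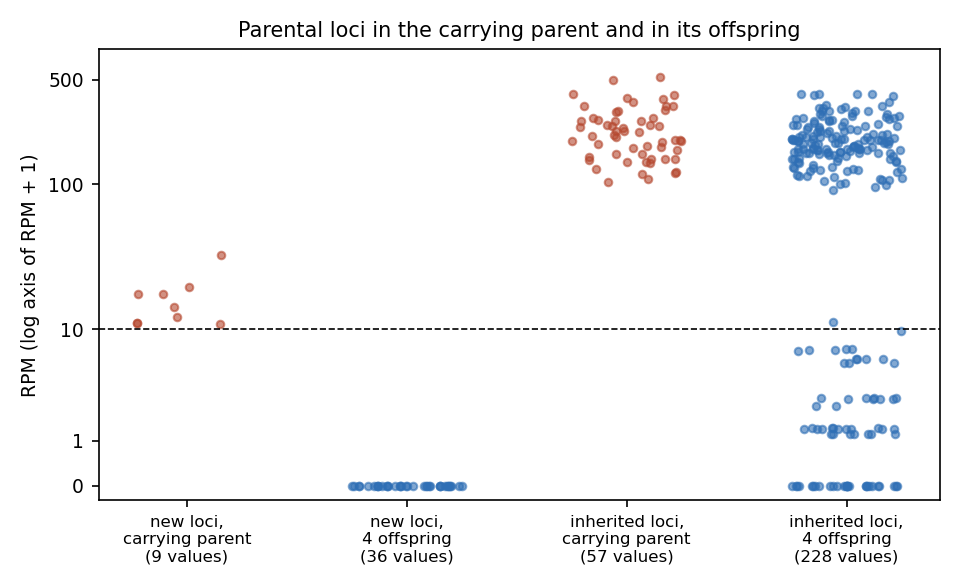
RPM on a log axis of RPM + 1 (y axis) for the 9 new loci and the 57 inherited loci in the carrying parent and in the 4 offspring (x axis). Each point is 1 locus in 1 animal and the dashed line marks 10 RPM. The 36 values of the new loci in the offspring are all 0, while 158 of the 228 values of the inherited loci are above the line.

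The sex-linked loci followed the sex of the offspring. All 3 chromosome Y loci of the father, among them chrY:475547-477389 in an intron of Uty, were at 267 to 403 RPM in both sons and at most 9.62 RPM in both daughters. The 2 chromosome X loci of the father were turned around, at 148 to 199 RPM in both daughters and at most 6.88 RPM in both sons. Of the mother's 4 chromosome X loci, both sons had all 4 and both daughters had 1.

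Levels in the carrying parent differed with the number of offspring that received the locus. In 48 autosomal loci the RPM of the parent was divided by the mean of the grandparents that held the locus at 60 RPM or more. For the 18 loci found in all 4 offspring this ratio had a median of 1.45 (1.14 to 1.68), and for the 30 found in 1 to 3 offspring it was 1.08 (0.791 to 1.25). The single low value among the 18, 1.14, was at chr3:102762497-102763635 in an intron of the nuclear receptor gene Nr1h5, a locus that 1 grandparent lacked. The mother's 4 such loci had 1.43 to 1.55 and her 7 others 0.914 to 1.25. The offspring that carried the 18 loci had a median of 0.740 of the level of the parent, against 0.954 at the 30 others. Both ratios hold the same level of the parent, so the second is not independent of the first. As background, an animal with an element on both homologues passes it to every offspring, which then hold it on one; copy number was not measured otherwise. The ratios are given as a description with no test, and neighbouring loci that are 2 sides of 1 element count as 2 values.

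**Figure D4:**
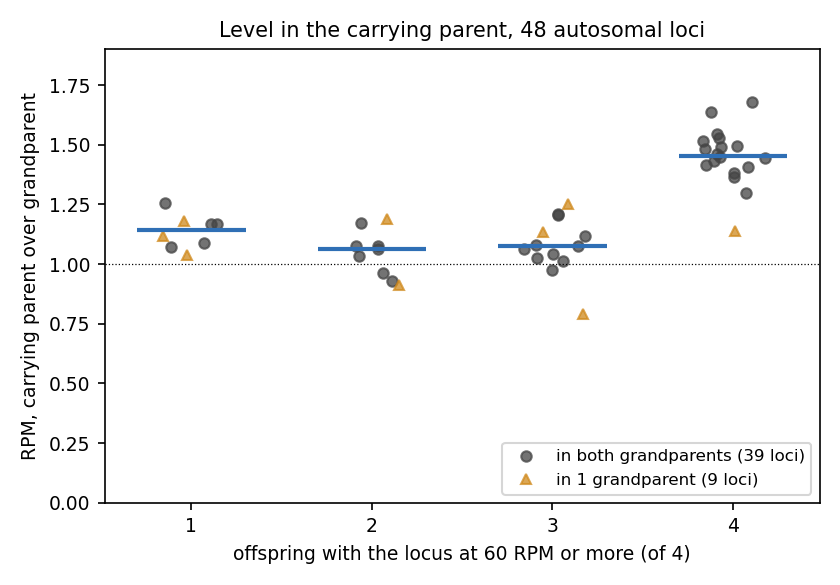
RPM of the carrying parent over the mean of the carrying grandparents (y axis, linear from 0) against the number of offspring with the locus at 60 RPM or more (x axis), for 48 autosomal loci. Points are loci, triangles are loci that 1 grandparent lacked, and the bars are medians. The median is 1.45 where all 4 offspring hold the locus, and 1.14, 1.06 and 1.08 where 1, 2 and 3 do.

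Neighbouring regions moved together, but they can be opposite sides of the same element. Whether neighbours are separate elements was not tested, so the sharing cannot be read as separate loci moving together. There were 9 pairs of the 57 loci that lay within 10 kb of each other, at 4383 to 6975 bp, and all 9 pairs reached the same offspring at 60 RPM. At 10 RPM 8 of the 9 did. The exception was chr8:80662746-80664108 near Ttc29, whose 11.3 RPM in C6427 was the lowest called value above, while its neighbour had 1.41 RPM in the same animal. With loci within 1 Mb counted once, the share of pairs called was 67.6% over 47 loci. When the other parent was allowed up to 60 RPM, which admits the loci with low reads in T00869, it was 76.4% over 111 loci.

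No older locus appeared in the offspring without a parent that carried it. At 60 RPM or more, 9 loci that a grandparent held at 100 RPM or more were under 60 RPM in both parents, and in 0 of their pairs did an offspring reach 60 RPM (at most 21.7 RPM). Each offspring called 14 to 28 loci that neither parent called, but none of these reached 60 RPM, and only the Gm11388 locus had no read in parents and grandparents. Of the 228 polymorphic loci of the family, 175 were at 100 RPM or more in both grandparents. Loci called in every animal of the family are not among them, so the shares hold for these 175 alone. The 175 loci were held at 60 RPM in 75.7% of the pairs with a first-generation animal and in 76.9% of those with a second-generation animal. Of these loci, 102 were held by both parents, 68 by 1 and 5 by neither, and the offspring held them in 84.6%, 71.0% and 0% of the pairs. The 5 loci that neither parent held were thus gone from the second generation, while 79 of the 175 were now in all 4 animals, against 65 in the first.

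The number of ETn loci called overlapped between the generations. These are regions of flanking reads joined within 1000 bp, not a count of ETn elements. The first generation called 2622.5 ± 16.8 loci (SD, n = 4; 2599 to 2636) and the second 2592.5 ± 21.4 (SD, n = 4; 2564 to 2609), 30 fewer. Without T00869 the difference (second minus first) was -26.5. At 60 RPM it was -7.75 loci, smaller than the SD of either generation (10.4 and 16.1), and -3.33 without T00869. Of the 228 family loci the first generation held 170 ± 8.04 at 60 RPM and the second 167.25 ± 8.18 (SD, n = 4 each). Without T00869 the first generation held 166.3 ± 4.04 (n = 3).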

How the data were processed

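The authors captured genomic DNA with custom RNA probes for ETn LTR ends (SureSelectQXT), mapped each mate on its own to mm9 with Bowtie, discarded duplicates with SAMtools, and used bedtools to merge, within 1000 bp, unique reads whose mate lay in an ETn repeat (tool versions: not given in the sources used here). As deposited, each region has a raw count for 1 library, unnormalized and not pooled. Counts were divided by the library total (RPM). Regions with 10 RPM or more in any library were joined within 1000 bp into 5018 loci. No region of 786023 ran past a chromosome end of NCBIM37, whose GENCODE annotation gave the genes. The authors' removal of regions near annotated ETn repeats was replaced by an alternative that drops loci within 1000 bp of a probe match (blastn 2.17.0). Private insertions per animal were compared by an exact two-sided permutation test of the rank sum with a threshold of 0.05 and no adjustment for 1 test. Shares have exact (Clopper-Pearson) 95% intervals, and intervals and floors cover counting error only. Every private insertion of the second generation and of its parents is named, except 1 of T09673 that is not reported here, and the 6 strongest of each other animal. Rules were tested on simulated loci (Python 3.11.15). The members and rules were chosen with earlier results of these data known. No 2 members had identical counts. The study's own call list was not used.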

Additional observations from a re-analysis of the deposited data

Results flagged for a closer look

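Of 14 sets of 4 values checked for an animal far from the rest of its generation, 4 had one. The cut-off is set for about 1 in 20 by chance with continuous values, a rate that does not hold for small tied counts. Where 3 siblings are equal, any other value is flagged, as for the insertions of C6428 and the family loci of C6429. C6428 had 1 private insertion while its 3 siblings had 0. T00436 had 55 private loci at 5 to 10 RPM, and the next first-generation animal had 6. C6429 held 2 family loci at 10 to 60 RPM, against 5 in each of its siblings. C6428 also had the deepest library of the second generation, with 831324 reads, where the next had 726489.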

How the results depend on the processing

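No paired analysis was possible because the labels number no replicates that would pair animals of the generations. The excess of insertions in the first generation kept its direction under all 21 alternatives. It passed the threshold of the exact test (p = 0.0286, -100% as the percent of animal pairs with more minus fewer insertions in the second generation) at 5 RPM and with regions joined within 5000 bp. It ran from -100% to -91.7% with any 1 animal left out. It was lowest, -62.5% with p = 0.257, where no read in any other animal was allowed. The share of the parents' new loci found in the offspring was 37.0% at 5 RPM and 81.5% where reads without a call were allowed in the grandparents, with 13.5% and 70.3% for animals that are not parents, and 2 such loci were then shared by siblings. At 5 RPM with no read outside the family, an alternative chosen after seeing the data like the other 3 named here as added (60 RPM, 1 Mb blocks, other parent below 60 RPM), it was 0 of 12. The share of inherited loci passed on was 79.0% at 200 RPM, 58.3% with no read in the other parent and 76.4% with the other parent below 60 RPM, and ran from 64.9% to 71.9% with 1 offspring left out. The difference in loci called was -63.25 at 5 RPM and -7.75 at 60 RPM, and ran from -37.8 to -20.5 with 1 animal left out. The median of first-generation insertions was 7.97 RPM at 5 RPM and 31.2 RPM at 20 RPM, and ran from 13.3 to 15.1 RPM with 1 animal left out. With 1 offspring left out, the new loci found and shared stayed at 0. At 7.07 to 9.02 reads per call, an insertion in few cells is near the limit of detection.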
